A study of Homo sapiens with 15 samples.

Results

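miR-21 is 1 microRNA hairpin that gives rise to a pair of mature strands, hsa-miR-21-5p and hsa-miR-21-3p, written miR-21-5p and miR-21-3p here. Both were taken by name from a table of 1619 mature miRNA entries, so they are 2 of 1619 entries, and miR-21-5p was selected as the most abundant miRNA of the series. All values come from small RNA sequencing of DiFi, a human cell line established from a colorectal carcinoma, in a study that tried ways of culturing the cells to collect the small RNA carriers they secrete. The series title names supermeres, which are small extracellular particles without a membrane. The groups were filtered HDM (2 libraries, HF6 and HF7), unfiltered HDM (2, HF6 and HF7), cell pellets (2, HF6 and HF7), HF7 plate cells (3, plates 1 to 3) and HF6 plate cells (3, plates 1 to 3), and HDM media and regular media had 1 library apiece. The labels name no treatment or genetic change for any of them, do not spell out HDM or HF, and carry the cell line name on the media libraries as well. A medium sample without cells is listed in the labels and was not analysed here, so no medium background is subtracted from any value.

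The miR-21 gene has a promoter of its own inside the gene VMP1, and its transcription is driven by AP-1 and STAT3. After Drosha and Dicer processing, the 5p strand is the guide that is loaded into Argonaute, where it represses targets such as PDCD4, and the 3p strand is the passenger that is mostly discarded. miR-21-5p is raised in colorectal tumours and in most other carcinomas, and it is also abundant in fibroblasts and in extracellular RNA.

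The sequences show how the strands sit in the hairpin and which other entry carries the same seed. The arms are given as deposited (DNA letters), with the seed, bases 2 to 8, in capitals, and the hairpin is RefSeq's (GRCh38.p14) with both arms in capitals.
miR-21-5p: tAGCTTATcagactgatgttga
miR-21-3p: cAACACCAgtcgatgggctgt
miR-590-5p: gAGCTTATtcataaaagtgcag
MIR21 hairpin: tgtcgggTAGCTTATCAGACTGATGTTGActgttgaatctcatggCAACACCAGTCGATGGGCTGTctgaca
In GRCh38, miR-21-5p lies at chr17:59841273-59841294 and miR-21-3p at chr17:59841311-59841331, both on the plus strand. In GENCODE release 29 the hairpin, chr17:59841266-59841337, is the gene MIR21 and lies inside an exon of a retained-intron transcript of the protein-coding gene VMP1 (59707192 to 59842255, plus strand). The 5p arm covers hairpin bases 8 to 29 and the 3p arm bases 46 to 66, with 16 bases between them. No other entry of the table came within 1 mismatch of either arm, and neither arm had a fractional value in any library. The 3p seed, AACACCA, occurred in no other entry.

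miR-590-5p, from chr7:74191213-74191234, was the single entry with the seed of miR-21-5p. It held between 0 and 54 counts per library, 239 in all, against 6006244 for miR-21-5p, so it supplied 0.00398% of the counts with that seed. The library with 0, the HF7 pellet, allows up to 9.57 CPM (counts per 1000000 miRNA counts of the library) at 3 counts. In the miR-590 hairpin the arm with the shared seed was the minor one, at 1.31% of the counts of both arms, and its partner miR-590-3p held 17944 counts.

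Library totals ran from 205738 to 4896917 counts, lowest in the HF7 unfiltered HDM sample and the HF7 pellet (313380). A list of 8 intestinal epithelial miRNAs (miR-192, miR-194, miR-215 and the miR-200 family) was present in full in every group, at 235274 to 311882 CPM in sum, and 8 blood cell miRNAs summed to 1382 to 4107 CPM, mostly miR-142-3p and miR-142-5p. Of 7 fibroblast and smooth muscle miRNAs, 3 are in the table, and they summed to at most 3.003 CPM in any library. Nothing in the labels says that replicates were separate cultures, so p-values measure the spread between these samples, and intervals on single libraries cover counting error only.

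miR-21-5p made up between 12.7% and 19.3% of the miRNA counts of a library, and miR-21-3p between 202 and 623 CPM. The 5p arm, chosen for the highest mean level, was first in all 14 libraries and stood from 1.48-fold to 2.68-fold above the entry in second place, which was miR-200b-3p or miR-194-5p. Of the 10 most abundant entries its coefficient of variation over libraries, 13.7%, was neither the smallest (7.87% for miR-192-5p) nor the largest (34.1% for miR-200c-3p). The 3p arm ranked from 93rd to 149th. Its highest library was 3.08 times its lowest, against 1.52 times for the 5p arm.

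By library, miR-21-5p took 13.1% (HF6) and 16.0% (HF7) of the counts in filtered HDM, 15.4% and 14.5% in unfiltered HDM, and 12.7% and 19.3% in the cell pellets. On plates 1, 2 and 3 it took 19.2%, 14.5% and 12.9% in HF7 cells and 17.3%, 15.8% and 13.9% in HF6 cells. The HDM samples lay between the pellets, which were far apart, and plate 1 stood above plates 2 and 3 for both HF numbers. HDM media held 14.6% (95% Wilson interval 14.6% to 14.7%) and regular media 16.4% (16.3% to 16.4%), within the range of the cell libraries.

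miR-21-3p stood at 229.8 CPM (HF6) and 297 CPM (HF7) in filtered HDM, 589 and 608 CPM in unfiltered HDM, and 202 and 370.2 CPM in the pellets. On plates 1, 2 and 3 it stood at 556, 263 and 374 CPM in HF7 cells and at 623, 512 and 377 CPM in HF6 cells. Both filtered HDM samples were below both unfiltered ones, and plate 1 was again the highest plate for both HF numbers. The media libraries differed, at 621 CPM in HDM media and 361 CPM in regular media. These values rest on 116 to 2988 counts of the 3p arm per library.

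**Figure D1:**
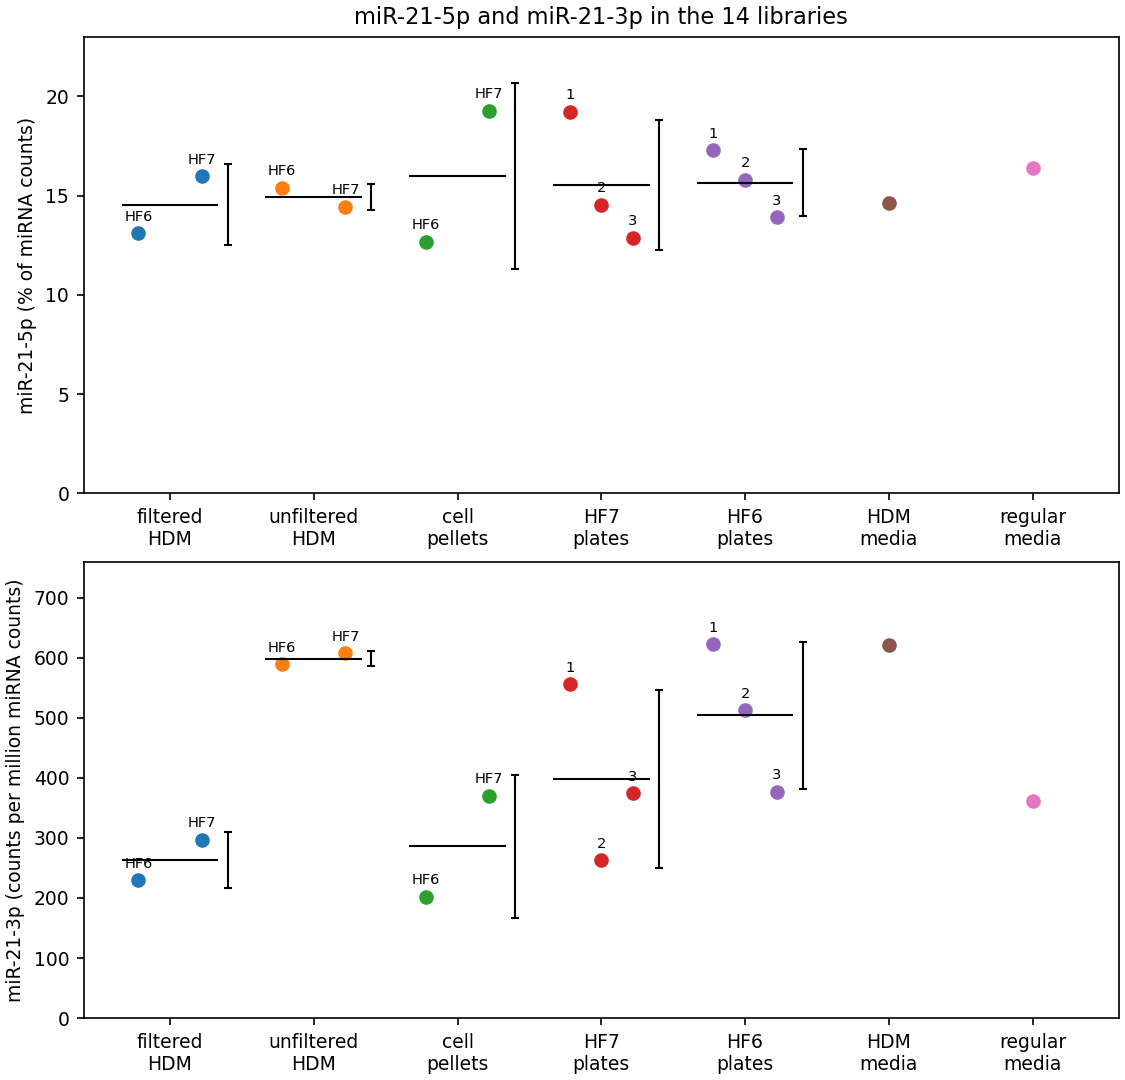
miR-21-5p as a percentage of miRNA counts (upper panel) and miR-21-3p in CPM (lower panel) in each library, with the HF number or plate number above each point. Horizontal lines are group means and bars are ± 1 SD; the 5p arm lies between 12.7% and 19.3% throughout, and the filtered HDM samples have less 3p (229.8 and 297 CPM) than the unfiltered ones (589 and 608 CPM).

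The tests below used TMM-normalised CPM, in which a library is scaled by the bulk of its miRNAs and not by its total. On that scale miR-21-5p averaged 202497 ± 11379 CPM on plate 1, 193960 ± 24867 in pellets, 145842 ± 8193 on plate 2, 135105 ± 25066 in filtered HDM, 132097 ± 12027 on plate 3 and 125077 ± 21388 in unfiltered HDM (SD, n = 2 each). In that order, plate 1 and pellets overlapped, and so did all neighbours from plate 2 downwards. Between pellets and plate 2 there was no overlap, with the lower pellet at 176376 CPM and the higher plate 2 library at 151635 CPM. miR-21-3p had another order, with 655 ± 64.8 CPM on plate 1, 499.6 ± 52.7 in unfiltered HDM, 373 ± 168 on plate 2, 370.2 ± 15.7 on plate 3, 344 ± 88.5 in pellets and 245 ± 54.9 in filtered HDM. Plate 1 and unfiltered HDM did not overlap, while each later neighbour overlapped the one before it. In the pellet and plate libraries, which are bulk RNA of cells, fewer cells with the miRNA and less of it per cell cannot be told apart.

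Plates 2 and 3 were compared with plate 1, a contrast chosen because earlier results of these data had set plate 1 apart. Its p-values and calls therefore describe a split already seen in these libraries and are no independent test of it. Both arms fell on plates 2 and 3. miR-21-5p averaged 138969 ± 11557 TMM-normalised CPM on plates 2 and 3 (n = 4) and 202497 ± 11379 on plate 1 (n = 2), a log2 fold of -0.54 ± 0.15 (SE, edgeR adjusted p = 0.0165). miR-21-3p averaged 371 ± 97.7 CPM on plates 2 and 3 and 655 ± 64.8 on plate 1, a log2 fold of -0.82 ± 0.26 (edgeR adjusted p = 0.0307). Neither arm overlapped between the groups, which was also true of 49.8% of the 534 miRNAs tested. edgeR called 26% of the miRNAs in this comparison, 61 of them (11.4%) higher and 78 (14.6%) lower on plates 2 and 3, so a call here is common. In order of p-value the 5p arm was 98th and the 3p arm 124th. Same-numbered plates of HF7 and HF6 deviate together, so these libraries stand for 2 plate numbers against 1. The fit takes its spread between the HF numbers within each plate number, each HDM group and the pellets, not between plates.

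The calls of both arms rested on the scaling and on single libraries. Scaled by library totals alone, the log2 folds were -0.36 ± 0.15 for the 5p arm (edgeR adjusted p = 0.0825) and -0.63 ± 0.26 for the 3p arm (edgeR adjusted p = 0.0886). Over all miRNAs this scaling takes the median log2 fold to 0.21, against 0.02 with TMM, and gives 102 higher and 66 lower calls. Leaving out any 1 of the 6 plate libraries ended the call of the 5p arm, with adjusted p from 0.0507 to 0.194, and leaving out any except HF6 plate 2 ended that of the 3p arm, with adjusted p up to 0.227. The direction was negative in every one of those fits.

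Of the 10 most abundant entries, miR-200c-3p, an epithelial repressor of ZEB1, also fell on plates 2 and 3 (-1.10 ± 0.30), and miR-29a-3p, a repressor of collagen genes, rose (0.63 ± 0.19). The other 7 were not called, miR-200b-3p at -0.01 ± 0.13 and miR-194-5p at -0.01 ± 0.19 among them. Of 14 further miRNAs known to be raised in colorectal tumours, 13 were tested, 3 rose and 5 fell on plates 2 and 3, with a median log2 fold of -0.38 against 0.02 over all miRNAs. edgeR called 11.4% of all miRNAs higher and 14.6% lower in this comparison, the background for each list count here. miR-135b-5p, linked to Wnt signalling, fell by 2.09 ± 0.29, and miR-182-5p, miR-183-5p and miR-96-5p of a shared cluster fell by 0.90 ± 0.16, 0.86 ± 0.18 and 0.88 ± 0.27. miR-155-5p, a target of AP-1 and NF-kB, rose by 1.65 ± 0.26, and the MYC-induced miR-18a-5p and miR-19a-3p rose by 1.12 ± 0.24 and 1.02 ± 0.25. miR-224-5p was the fifth to fall, by 0.64 ± 0.20. Of 10 miRNAs known to be lowered in such tumours, 6 were tested and 1 fell, miR-139-5p, at -3.03 ± 0.87. That miRNA is near the floor, with a mean of 0.50 CPM (TMM) on plates 2 and 3 and 5.13 on plate 1. In the libraries of plates 2 and 3, 3 counts stand for 0.717 to 2.41 CPM. Of the 8 intestinal epithelial miRNAs, 3 fell on plates 2 and 3, with miR-141-3p at -1.13 ± 0.25 and miR-215-5p at -0.83 ± 0.19 beside miR-200c-3p. None was called higher, with miR-200a-3p at 0.45 ± 0.19. Of the 8 blood cell miRNAs, 5 were tested and none was called on plates 2 and 3, with miR-142-3p at 0.61 ± 0.25 and miR-142-5p at -0.59 ± 0.24.

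HF7 and HF6 plates were compared to see how far the HF numbers differ in the same kind of collection. miR-21-5p averaged 158061 ± 46190 CPM on HF7 plates and 162229 ± 28445 on HF6 plates (TMM, n = 3 each), and miR-21-3p averaged 407 ± 183 CPM on HF7 plates and 525 ± 162 on HF6 plates. The log2 folds were -0.04 ± 0.21 (95% interval -0.50 to 0.42) for the 5p arm and -0.37 ± 0.36 (-1.14 to 0.40) for the 3p arm, and neither passed. edgeR called 0% of 534 miRNAs here, with 6 at an unadjusted p under 0.05, and DESeq2 and limma-voom also called 0. Groups without overlap made up 4.68% of miRNAs, and both arms overlapped. Plate by plate, the 5p share of HF7 cells was 1.11, 0.920 and 0.926 times that of HF6 cells on plates 1, 2 and 3. For the 3p arm the ratios were 0.893, 0.514 and 0.992, so the mean difference lay mainly in plate 2. The intervals and counts of calls above come from fits that do not pair the plates by number, although same-numbered plates deviate together. With plate number as a block the log2 folds were -0.06 ± 0.17 and -0.41 ± 0.25, and neither arm passed.

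HDM was compared with the pellets and with plate cells to ask whether miR-21 is relatively enriched or depleted in HDM, taken as the extracellular collection, which the labels do not state. The 5p arm averaged 130091 ± 19886 CPM in the 4 HDM samples and 193960 ± 24867 in the 2 pellets on the TMM scale. The libraries did not overlap, as for 43.8% of miRNAs, but the log2 fold of -0.58 ± 0.22 (95% interval -1.06 to -0.10) did not pass (edgeR adjusted p = 0.0795), where 23% of miRNAs did, 55 (10.3%) higher and 68 (12.7%) lower. With plate number as a term the same log2 fold of -0.58, with a standard error of 0.15, passed (edgeR adjusted p = 0.00770). Neither HDM nor pellets have a plate number, so that term divides only the plate libraries. It alters the spread shared by all groups, with a common biological coefficient of variation of 0.217 against 0.365, and not this fold. By share of total counts the groups did overlap, and scaled by library totals the log2 fold was -0.12 ± 0.19. This takes the median of all miRNAs to 0.60, against 0.08 with TMM, and turns the calls to 104 higher and 43 lower. The 3p arm averaged 372 ± 154 CPM in HDM and 344 ± 88.5 in pellets, a log2 fold of 0.04 ± 0.39 (95% interval -0.80 to 0.87). For that arm the mean joins filtered and unfiltered HDM, which lie on either side of it.

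Against the 6 plate libraries neither arm passed. miR-21-5p averaged 130091 ± 19886 CPM in HDM and 160145 ± 34384 on plates, a log2 fold of -0.30 ± 0.17 (95% interval -0.67 to 0.07, edgeR adjusted p = 0.268). miR-21-3p averaged 372 ± 154 CPM in HDM and 465.9 ± 167 on plates, at -0.40 ± 0.29 (-1.02 to 0.22, edgeR adjusted p = 0.392). edgeR called 9.18% of miRNAs here, 19 (3.56%) higher and 30 (5.62%) lower in HDM, a count of 49 that became 166 with plate number as a term and 16 to 67 with 1 library left out. Of all miRNAs, 16.1% did not overlap between the groups, while both miR-21 arms did. Scaled by library totals, 41 were higher and 25 lower, and the median of all miRNAs was 0.08, against -0.10 with TMM. Of the 8 intestinal epithelial miRNAs, 6 were lower in HDM than in pellets, 5 were lower than on plates, and none was higher in either comparison. Among them miR-194-5p was at -1.303 ± 0.19 and miR-200a-3p at -1.04 ± 0.23 against pellets. miR-200b-3p, at -0.16 ± 0.15, and miR-200c-3p, at -0.48 ± 0.45, were not called there. Over all miRNAs, edgeR called 12.7% lower against pellets and 5.62% lower against plates. Both comparisons share the HDM samples. By total share these epithelial miRNAs summed to 235274 to 249659 CPM in HDM and to 273830 to 311882 CPM in pellets, without overlap. On the TMM scale 43.8% of single miRNAs did not overlap between these groups either. The sum was not tested.

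Cell pellets were set against plate cells, since both hold cells. miR-21-5p averaged 193960 ± 24867 CPM in pellets and 160145 ± 34384 on plates, a log2 fold of 0.28 ± 0.21 (95% interval -0.18 to 0.73). miR-21-3p averaged 344 ± 88.5 CPM in pellets and 465.9 ± 167 on plates, at -0.44 ± 0.37 (-1.24 to 0.36). The arms thus differed in sign, and neither passed, with edgeR adjusted p of 0.3996 and 0.454, where 7.12% of miRNAs did. Both arms overlapped between the groups, while 31.3% of miRNAs did not. The calls were 17 (3.18%) higher and 21 (3.93%) lower in pellets. Scaled by library totals they were 15 higher and 65 lower, with the median of all miRNAs at -0.45, against -0.12 with TMM.

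The same colorectal tumour lists were read in these 3 comparisons. Of the 13 raised miRNAs tested, 1 was higher and 3 were lower in HDM than in pellets, with miR-155-5p at 2.46 ± 0.62, miR-96-5p at -1.73 ± 0.39, miR-182-5p at -1.42 ± 0.31 and miR-183-5p at -1.20 ± 0.32, where 23% of all miRNAs were called. The median log2 fold of the list was 0.28, against 0.08 over all miRNAs. Against plates, miR-155-5p was also higher in HDM, at 1.66 ± 0.38, and no other member was called, where 9.18% of all miRNAs were. Pellets differed from plates in miR-182-5p, at 1.33 ± 0.28, where 7.12% of all miRNAs were called. Of the 6 lowered miRNAs tested, miR-1-3p, known as a muscle miRNA, was lower in HDM than in pellets, at -2.99 ± 0.59, and higher in pellets than on plates, at 2.34 ± 0.51. Neither list had a call between filtered and unfiltered HDM or between HF7 and HF6 plates. Of the 5 blood cell miRNAs tested, 3 were lower and 1 higher in HDM than in pellets, and 2 were lower and 1 higher in HDM than on plates. miR-142-5p stood at -1.70 ± 0.31 against pellets and -1.22 ± 0.25 against plates, and miR-144-5p, an erythroid miRNA, at -2.89 ± 0.88 and -2.72 ± 0.66. miR-451a, also erythroid, was called against pellets (-2.87 ± 0.61). miR-150-5p, a lymphocyte miRNA, was the one that was higher, at 5.38 ± 0.85 and 4.46 ± 0.43. The erythroid folds rest on few counts. miR-144-5p held 2, 2, 2 and 0 counts in the HDM libraries and 10 and 4 in the pellets. miR-451a held 5, 3, 3 and 0 counts in the HDM libraries and 32 and 2 in the pellets. For miR-150-5p the pellets held 4 and 0 counts, and the HDM libraries held 15 to 187 (47.3 to 75.4 CPM). It was also present in the media libraries, with 450 counts (93.5 CPM) in HDM media and 173 (35.3 CPM) in regular media. Its level is thus not particular to the HDM samples.

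**Figure D2:**
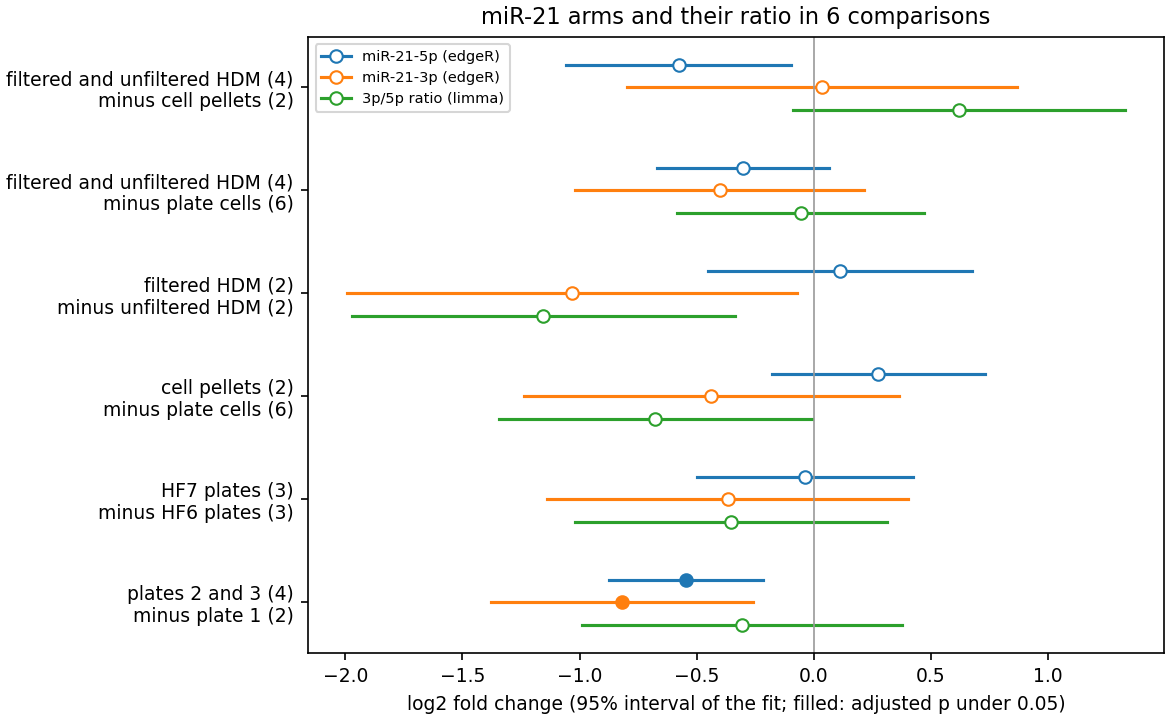
Log2 fold change of miR-21-5p and miR-21-3p (edgeR) and of the 3p/5p ratio (limma) in each comparison, with 95% intervals and filled points where the adjusted p was under 0.05. The 2 arms passed on plates 2 and 3 against plate 1 (-0.54 and -0.82), a contrast chosen from earlier results of these data, and no other point did.

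Filtered HDM was set against unfiltered HDM to see how miR-21 differs between them. The labels do not say that samples with the same HF number share a source. Here, after filtration means only in the filtered samples. The 5p arm averaged 135105 ± 25066 CPM after filtration and 125077 ± 21388 CPM without it (TMM, n = 2 each), a log2 fold of 0.11 ± 0.26 (95% interval -0.45 to 0.68) that turned to -0.037 ± 0.23 when scaled by library totals, with the median of all miRNAs at -0.09, against 0.03 with TMM. The 3p arm averaged 245 ± 54.9 CPM after filtration and 499.6 ± 52.7 CPM without it, a log2 fold of -1.03 ± 0.45 (-1.99 to -0.07). The 3p libraries did not overlap, as for 39.1% of miRNAs. edgeR called 0% of the 534 miRNAs in this comparison (10 at an unadjusted p under 0.05, 0 by DESeq2, 1 by limma-voom). miR-21-3p was 6th in order of p-value, with an unadjusted p = 0.0370 and an adjusted p = 0.997 in edgeR. In a fit of the 4 HDM libraries alone it passed at -1.11 ± 0.20 (edgeR adjusted p = 0.00918), among 14 miRNAs called there, and over 14 alternatives the adjusted p ran from 0.00918 to 1. Within each HF number the 3p level of the filtered sample was 0.390 (HF6) and 0.488 (HF7) times that of the unfiltered one. Summed blood cell miRNAs moved the same way, at 1382 to 1550 CPM after filtration and 2542 to 2951 CPM without it. They were mostly miR-142-3p and miR-142-5p, with 1 of 8 at 0 in filtered HDM (miR-486-5p) and 3 of 8 in unfiltered HDM (miR-144-3p, miR-223-3p and miR-486-5p). Of the 5 blood cell miRNAs tested, miR-142-3p (log2 fold -0.68) and miR-142-5p (-1.04) were lower after filtration. miR-451a (0.71), miR-144-5p (0.31) and miR-150-5p (0.09) leaned the other way, the erythroid ones on few counts. None of these was called, and the list median was 0.09, against 0.03 over all miRNAs. The fall of the sum is therefore that of miR-142, not of the list. The part of blood cell miRNAs in the result was not tested.

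The ratio of the arms within a library needs no scaling between libraries, since both come from 1 hairpin and 1 total. miR-21-3p made up 0.175% (HF6) and 0.185% (HF7) of the counts of both arms in filtered HDM, 0.381% and 0.419% in unfiltered HDM, and 0.159% and 0.192% in pellets. On plates 1, 2 and 3 the share was 0.288%, 0.181% and 0.290% in HF7 cells and 0.359%, 0.323% and 0.270% in HF6 cells. It was 0.422% in HDM media (95% Wilson interval 0.407% to 0.438%) and 0.220% in regular media (0.210% to 0.231%). Unfiltered HDM and HDM media were thus the high end, and filtered HDM, the pellets and HF7 plate 2 the low end.

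Filtered against unfiltered HDM had the largest difference in arm ratio of the 6 comparisons, though samples of the same HF number are not known to be pairs. The 5p arm outnumbered the 3p arm 570 to 1 and 539 to 1 in filtered HDM, against 261 to 1 and 238 to 1 in unfiltered HDM, so the 3p share was lower by a factor of 2.18 in HF6 and of 2.26 in HF7. The Wilson interval of the HF7 unfiltered library, 0.352% to 0.499%, which rests on 125 counts of the 3p arm, lies above those of both filtered libraries (0.161% to 0.190% and 0.170% to 0.202%). In limma over 141 hairpins with both arms measured, the log2 ratio of 3p over 5p differed by -1.15 ± 0.37 (95% interval -1.97 to -0.34), with an unadjusted p = 0.0103 and an adjusted p = 0.560. An exact permutation test of 2 against 2 libraries cannot go below p = 0.333, which is what it gave. limma called 0.709% of hairpins here, let-7i alone (adjusted p = 0.0464), named after its values were seen, and that call was lost in 3 of 4 fits with 1 library left out. miR-21 was second in order of p-value.

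**Figure D3:**
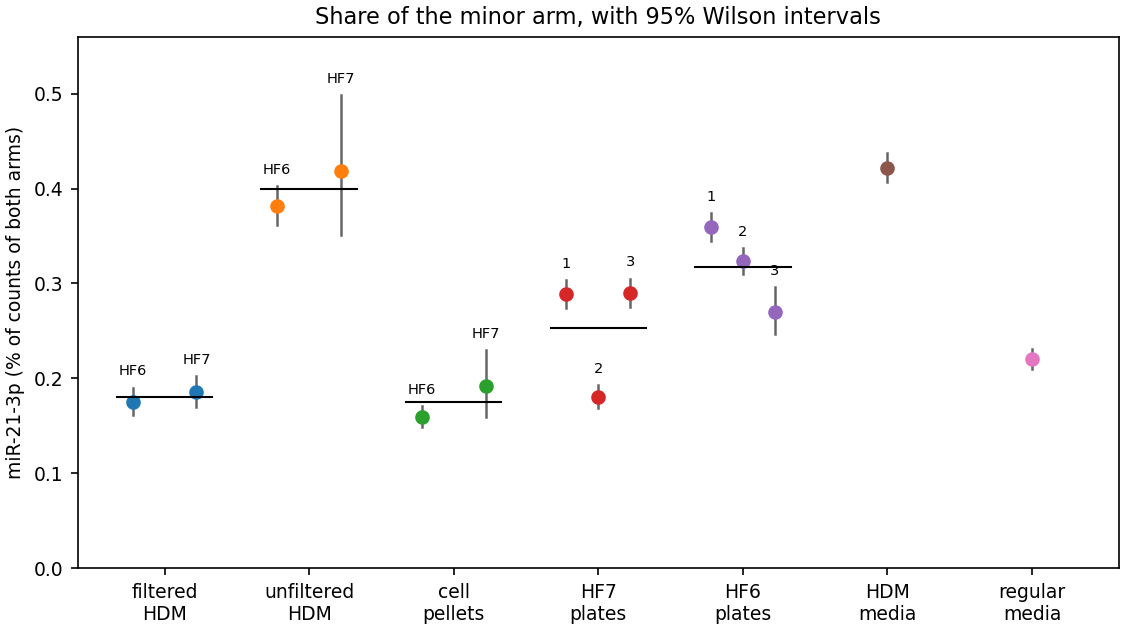
miR-21-3p as a percentage of the counts of both miR-21 arms in each library, with 95% Wilson intervals and group means as horizontal lines. Filtered HDM (0.175% and 0.185%) and the pellets (0.159% and 0.192%) are low, and unfiltered HDM (0.381% and 0.419%) and HDM media (0.422%) are high.

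The other 5 comparisons of the ratio did not pass either, and their groups overlapped. The log2 difference was 0.62 ± 0.32 for HDM against pellets (limma adjusted p = 0.168, with 30.5% of hairpins called) and -0.06 ± 0.24 for HDM against plates (adjusted p = 0.895, 5.67% called). It was -0.68 ± 0.30 for pellets against plates (limma adjusted p = 0.153, 12.8% called), -0.35 ± 0.30 for HF7 against HF6 plates (adjusted p = 0.999, 0% called, 0 at an unadjusted p under 0.05) and -0.31 ± 0.30 for plates 2 and 3 against plate 1 (adjusted p = 0.662, 2.13% called). Exact two-sided permutation tests over libraries gave p from 0.143 to 0.819 for these 5, and 0.48 to 0.819 after adjustment over all 6. Hairpins without overlap made up 41.1%, 11.3%, 26.2%, 4.26% and 36.9% in the same order. The fall of both arms on plates 2 and 3 came without a ratio change that passed, with a 95% interval of the ratio from -0.99 to 0.38.

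Set among other hairpins, miR-21 is strongly one-sided. Its minor arm averaged 0.276% of the counts of both arms over the 14 libraries, 10th lowest of 141 hairpins, whose median was 4.95%. let-7g (0.0552%), miR-30d (0.0946%) and miR-200c (0.111%) were the most one-sided. In level, miR-21-3p was the 10th highest minor arm at a mean of 427 CPM. The minor share was lower after filtration in most hairpins, with a median log2 difference of -0.17 and 93 of 141 hairpins lower. Filtered and unfiltered HDM did not overlap in 45.4% of hairpins, with the minor share lower after filtration in 41 (29.1%) and higher in 23. Among the 10 hairpins with the most minor-arm counts, the 9 others ranged from -0.52 ± 0.42 for miR-151a to 0.51 ± 0.34 for miR-335, against -1.15 ± 0.37 for miR-21. miR-200a and miR-200b, whose 5p arms are minor, stood at -0.06 ± 0.66 and 0.17 ± 0.39. Over all hairpins, 11 had a lower log2 difference than miR-21, each with a minor arm of at most 45.1 CPM on average. Of the most one-sided hairpins, named after their values were seen, miR-30d stood at -1.17, let-7g at -1.05 and miR-200c at -0.12. The difference between miR-21 and other hairpins was not tested.

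**Figure D4:**
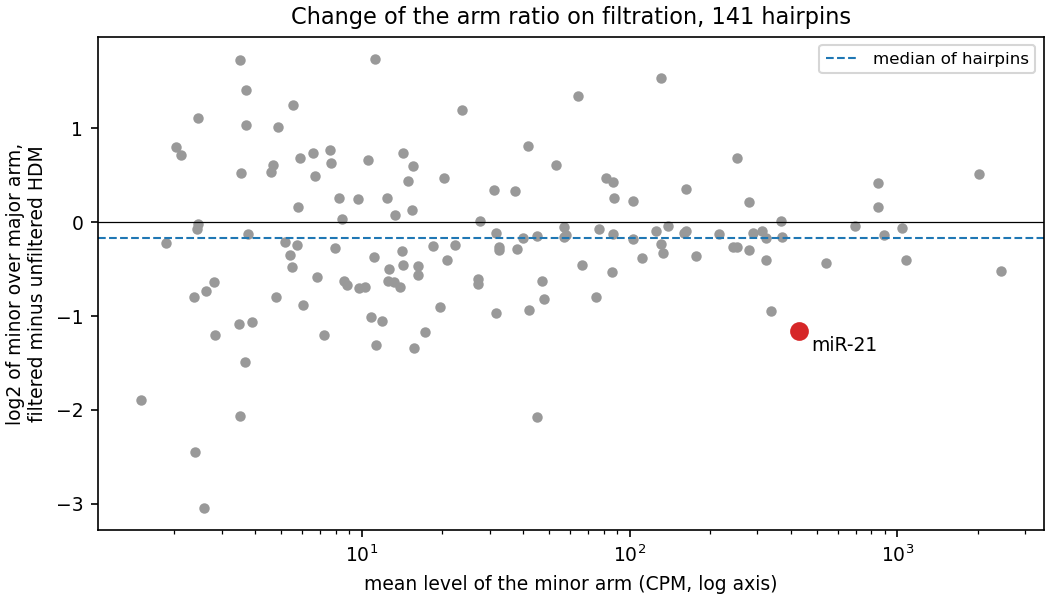
Difference in the log2 ratio of minor over major arm between filtered and unfiltered HDM for 141 hairpins, against the mean level of the minor arm in CPM on a log axis. miR-21 stands at -1.15 with a minor arm of 427 CPM, below the median of hairpins at -0.17 (dashed line).

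The arms did not follow each other closely over libraries. Pearson's r between log2 TMM-normalised CPM of the arms was 0.43 over the 12 replicated libraries, which share their scaling factors, and the 3p arm ranked 59th of 182 candidate miRNAs (mean of 100 CPM or more) in likeness to the 5p arm. In likeness to the 3p arm, the 5p arm ranked 10th of 182 at the same r. The 5 most like miR-21-5p were miR-339-3p (0.91), miR-27a-3p (0.90), miR-203a-3p, a keratinocyte and epithelial miRNA (0.89), miR-99b-5p (0.89) and miR-24-3p (0.85). miR-500a-3p was the least like it, at -0.86. For miR-21-3p the likeness was weaker, with miR-22-3p (0.61), miR-142-5p (0.60), miR-24-2-5p (0.58), miR-339-3p (0.51) and miR-30e-3p (0.51) at the top and miR-92a-3p (-0.68) at the bottom. The median r of all candidates was 0.08 for the 5p arm and -0.04 for the 3p arm.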

How the data were processed

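Per the labels' protocols, a miRNeasy kit served for RNA extraction and a NEXTflex kit for small RNA libraries. The submitters' processing notes list cutadapt 2.10, Bowtie 1.3.1, FastQC and GRCh38, without their roles. The authors deposited expected counts per mature miRNA, not normalised, as 1 table; the counting rule, the miRNA annotation and any filters are not given in the sources used here. Of 15 labelled samples, 14 have a column. Values were rounded to whole counts.

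The 12 replicated libraries were fitted with 1 coefficient per group in edgeR 4.0.16 (TMM, filterByExpr, quasi-likelihood; R 4.3.3), which left 534 miRNAs, a common biological coefficient of variation of 0.365 and 7 residual degrees of freedom. Plates 2 and 3 against plate 1 came from a fit with plate number in place of HF number as the plate group (0.217). The standard error is the fold divided by the root of the F statistic. Arm ratios, log2((3p + 0.5)/(5p + 0.5)), were tested in limma 3.58.1 over 141 hairpins whose arms share a name and both passed the filter. Calls are at a Benjamini-Hochberg adjusted p under 0.05. Permutation tests used scipy 1.17.1. The fits were tested on simulated data.

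The members, lists and comparisons were chosen with earlier results of these data known. The rule named both arms, entries with the same seed or within 1 mismatch, the 10 most abundant entries, the 5 most and the 1 least correlated miRNAs for each arm, the 10 hairpins with most minor-arm counts, and lists of cell type markers and of miRNAs raised or lowered in colorectal tumours. Same-numbered HF7 and HF6 plates deviated together from their group means (r of 0.91, 0.82 and 0.74 over 281 miRNAs), so plate number pairs them. Replicates differed by more than sampling noise, with a chi-square per degree of freedom of at least 13.3.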

Additional observations from a re-analysis of the deposited data

Results flagged for a closer look

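The media libraries, which enter no comparison, held miR-21 far above the limit that a count of 0 allows (0.624 CPM in HDM media and 0.613 CPM in regular media). miR-21-5p made up 14.6% of counts in HDM media and 16.4% in regular media, and miR-21-3p stood at 621 and 361 CPM. No medium without cells was analysed here, so no background can be set beside these values.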

How the results depend on the processing

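Direction and side of the threshold held in 87 alternative values for miR-21-3p, 77 for miR-21-5p and 67 for the arm ratio. Among the other values of miR-21-5p, 9 changed sign, 11 lost a call and 1 gained one. Among those of miR-21-3p, 1 changed sign, 9 lost a call and 1 gained one. For the arm ratio the only other value, 1, changed sign. For plates 2 and 3 against plate 1, the 5p arm no longer passed with DESeq2 (-0.48), total counts (-0.36), total counts without the miR-21 arms (-0.43), no low-count filter (-0.41) and a minimum of 50 counts in 2 libraries (-0.44). The 3p arm no longer passed with total counts (-0.63), total counts without the miR-21 arms (-0.69), no filter (-0.67) and the minimum of 50 (-0.72). Leaving out 1 library gave -0.58 to -0.40 for the 5p arm and -1.06 to -0.60 for the 3p arm. For HDM against pellets, the 5p arm passed with plate number as a term (-0.58), through a smaller shared spread. With 1 library of that comparison left out, the 3p arm stood at -0.15 to 0.47. For filtered against unfiltered HDM, the 3p arm passed in the fit of those groups alone (-1.11), and the 5p arm changed sign with total counts (-0.037), total counts without the miR-21 arms (-0.042) and the minimum of 50 (-0.026), running from -0.047 to 0.35 with 1 left out. For HF7 against HF6 plates the 5p arm changed sign with the minimum of 50 (0.0049) and ran from -0.26 to 0.18 with 1 library left out. The arm ratio of HDM against plates ran from -0.17 to 0.0016. The cause of the other changes was not tested.

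HDM against pellets gave 123 called miRNAs, and 212 with plate number as a term. HDM against plates gave 49, with 155 by limma-voom, 166 with plate number as a term and 78 with the minimum of 50. Pellets against plates gave 38, with 79 by DESeq2, 58 by limma-voom, 80 and 82 by total counts with and without the miR-21 arms, 104 without a filter, 11 in the fit of those groups alone and 174 with plate number as a term. Filtered against unfiltered HDM gave 0, with 1 by limma-voom, 2 without a filter, 3 with plate number as a term and 14 in the fit of those groups alone. Plates 2 and 3 against plate 1 gave 139, with 216 by limma-voom and 210 in the fit of the plates alone. Leaving out 1 library gave 65 to 116, 16 to 67, 12 to 122, 0 and 60 to 129 in the same order. Of called hairpins, HDM against pellets had 43, with 23 at a pseudocount of 5 and 27 in the fit of those groups alone, and HDM against plates 8, with 14 in that fit and 18 with plate number as a term. Pellets against plates had 18, or 6 at a pseudocount of 5. Filtered against unfiltered HDM had 1, or 0 at a pseudocount of 5, in the fit of those groups alone, with plate number as a term and with the HF block. Plates 2 and 3 had 3, with 5 at a pseudocount of 5, 11 with a trend and 12 in the fit of the plates alone. Leaving out 1 library gave 24 to 50, 0 to 14, 12 to 34, 0 to 1 and 0 to 2 in this order.

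Outside the plates, samples with the same HF number share only that number, and their deviations correlated at -0.21 between filtered and unfiltered HDM, 0.05 between filtered HDM and pellets and 0.19 between unfiltered HDM and pellets. With HF number as a replicate block the 3p arm of filtered against unfiltered HDM stood at -1.03 and its arm ratio at -1.15, and on plates 2 and 3 the arms stood at -0.54 and -0.82. With that block, or plate number as a block between HF7 and HF6 plates, no call of either arm or of their ratio changed. With the HF numbers crossed between filtered and unfiltered HDM (chosen after seeing the data), 0 miRNAs and 0 hairpins were called. Depth limits the 3p arm, with 116 counts in the HF7 pellet and 125 in HF7 unfiltered HDM.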
